A study of Rattus norvegicus with 6 samples.

Results

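The vacuolar H+-ATPase (V-ATPase) subunits described here were 10 genes chosen by symbol, and 9 of them had a row among the 17648 genes of the expression matrix. The gene without a row was ATP6V0B, which encodes the c″ proteolipid and for which no expression value is given. All 9 averaged 1 or more and entered the tests. The matrix came from RNA sequencing of spinal cord neurons isolated from neonatal Sprague-Dawley rats and grown for 3 days with Ara-C, which was added to enrich for neurons. The Glu + siR-Con group (3 libraries) was transfected with a control small interfering RNA, and the Glu + siR-GAL3 group (3 libraries) with one against galectin-3 (GAL3). The study describes both groups as exposed to 10 μM glutamate for 1 h and kept for a further 16 h without it. In contrast, sample labels give saline for the siR-Con libraries and call the other group a GAL3 knockout. The source names of both groups nevertheless begin with Glu, the study's abbreviation for glutamate. If the labels that give saline were right, glutamate and GAL3 could not be told apart in any value below.

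The V-ATPase is the rotary pump that acidifies lysosomes, endosomes and synaptic vesicles. Its cytosolic V1 sector hydrolyses ATP, and its membrane V0 sector carries the protons. An autophagosome can degrade its content only after fusing with a lysosome that this pump has made acidic. In neurons the same pump builds the proton gradient that loads transmitters into synaptic vesicles. GAL3 is a lectin that gathers on lysosomes whose membrane has been damaged. The comparison therefore asks whether transcripts of the pump differed when GAL3 was silenced in this injury model.

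The deposited values were derived from FPKM (fragments counted per length of transcript and per size of library) and then corrected by the authors. FPKM is relative to transcript length, and levels of different genes are set side by side below on that scale. Whether the authors' correction kept that scale between genes is not known, and the depth behind the values is unknown. The targeted gene, listed as LGALS3, measured 77.4, 54.4 and 62.4 in siR-Con and -1.64, 32.3 and 18.5 in siR-GAL3 (here and below in the order of replicates 1, 2 and 3), so that all siR-GAL3 libraries lay below all siR-Con libraries. The siR-GAL3 replicate 2 library stood apart from the other 5 on the first principal component, which held 65.2% of the variance. Libraries also fell into 3 sets that shared many exactly equal values. Replicate 1 of both groups formed one set, replicate 3 of siR-GAL3 joined the remaining siR-Con libraries in another, and siR-GAL3 replicate 2 was alone. No V-ATPase subunit held an equal value in any pair of libraries. Neuronal markers were at uneven levels. RBFOX3 was at most 0.429 and NEFL at most 0.460, whereas SYT1 lay between 1.56 and 2.39, TUBB3 between 4.03 and 5.19, ELAVL3 between 7.81 and 11.02 and MAP2 between 13.1 and 19.0. GFAP, an astrocyte gene, lay between 514.8 and 757.7, and MBP, an oligodendrocyte gene, between 628.6 and 918.5. In bulk RNA, fewer cells of a type and less RNA per cell cannot be told apart, and the levels given here are those of the mixed culture.

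With all 6 libraries, no V-ATPase subunit was called different between the groups, and the estimated differences were small. No subunit had a Benjamini-Hochberg adjusted p under 0.05 in limma, where 0% of the 8495 genes tested passed. None had an unadjusted p under 0.05, against 8.66% of all genes tested. The silenced gene LGALS3 did not pass the adjusted threshold either, with a log2 fold change of -2.91 (limma unadjusted p = 0.0462, adjusted p = 0.571). An adjusted p above 0.05 therefore does not show that a subunit was unchanged. The log2 fold changes of siR-GAL3 against siR-Con, on log2(value + 1), ran from -0.11 for ATP6V0A1 to 0.14 for ATP6V0E1, with 5 subunits above 0 and 4 below. Their median was 0.015, and the median over all genes tested was -1.2e-05. The adjusted p-values lay between 0.590 and 0.943. The 95% confidence interval of every subunit held 0 on the log2 scale. The lowest limit was that of ATP6V1B2 (-0.29 to 0.14) and the highest that of ATP6V0E1 (-0.21 to 0.49). For ATP6V0A1 the interval ran from -0.27 to 0.039. A change within the interval of a subunit cannot be told from none for that subunit.

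The most abundant subunit was ATP6V0C, the c proteolipid, several copies of which form the rotating ring that binds protons. Its mean over the 6 libraries was 41.6, and its lowest value, 38.9, lay above the highest value of every other subunit of the group. ATP6V0D1, which joins that ring to the rotor, and ATP6V1D, the central stalk, followed with means of 23.8 and 20.8, and their ranges overlapped. ATP6V1E1, a stator subunit, had a mean of 13.96, ATP6V1A, the catalytic subunit, 10.4, and ATP6V1B2, its nucleotide-binding partner, 7.82. The lowest 3 were ATP6V0A1, the membrane subunit that lines the path of the protons, at 6.02, ATP6V1H, which regulates coupling of the sectors, at 4.75, and ATP6V0E1, a small membrane subunit, at 3.43. Besides ATP6V0D1 and ATP6V1D, ATP6V1H and ATP6V0E1 were the only neighbours in this order whose ranges overlapped. ATP6V1A and ATP6V1B2 alternate in the catalytic head, and their ratio lay between 1.24 and 1.40 in siR-Con and between 1.18 and 1.42 in siR-GAL3.

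V-ATPase genes are known targets of TFEB, a regulator of lysosomal genes that binds the CLEAR element, whose core is CACGTG. The 250 bases before the annotated start were available for 8 of the 10 subunits (all but ATP6V1B2 and ATP6V1H) in RefSeq sequence of GRCr8. Of these, the ATP6V0B window held 3 CG pairs, against a median of 17 in promoters of genes tested, and may not be a promoter. CACGTG, which reads the same on both strands, was found in 1 of the 8, ATP6V0D1, which is 1 of the 7 with an expression value, against 8.72% of 6845 promoters of genes tested. The match also held TCACGTGA, which overlaps it and was found in 1.78% of those promoters. It is shown because it was the only match, in a 30-base window on the minus strand with CACGTG in capitals and its first base 52 bases before the start (GRCr8, chr19:50357283-50357312).
ATP6V0D1: ccccattgtggtCACGTGagatgcagtgcg
In ATP6V0E1 a CACGTG lay within the first 50 transcribed bases instead.

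GGGCGG, the GC box of widely expressed genes, was searched on both strands (GGGCGG or CCGCCC) after the sequences had been read. It was found in 6 of the 8 windows, all among the 7 with an expression value, and in 62.0% of promoters of genes tested. The windows of ATP6V0A1, the subunit whose groups did not overlap, and of ATP6V0C, the most abundant one, are shown 5′ to 3′ on the strand of the gene with GC boxes in capitals (GRCr8, chr10:86435891-86436140, plus strand, and chr10:13705843-13706092, minus strand).
ATP6V0A1: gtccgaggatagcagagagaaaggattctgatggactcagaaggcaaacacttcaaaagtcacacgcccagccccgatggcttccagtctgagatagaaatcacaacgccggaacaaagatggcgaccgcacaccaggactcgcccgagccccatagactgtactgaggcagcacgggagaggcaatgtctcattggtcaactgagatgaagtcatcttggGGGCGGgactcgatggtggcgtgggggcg
ATP6V0C: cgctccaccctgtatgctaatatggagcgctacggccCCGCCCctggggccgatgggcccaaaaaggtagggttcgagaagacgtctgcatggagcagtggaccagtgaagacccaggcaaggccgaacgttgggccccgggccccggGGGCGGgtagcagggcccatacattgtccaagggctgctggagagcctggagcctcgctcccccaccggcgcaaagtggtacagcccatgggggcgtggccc
ATP6V0A1 held 1 such box, 29 bases before the start, and ATP6V0C held 2. G and C made up 56.4% of the ATP6V0A1 window and 67.2% of the ATP6V0C window, against a median of 60.8% over promoters of genes tested. These matches describe letters in a window and not bound sites.

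Of the membrane sector, ATP6V0A1 was 6.18, 6.27 and 6.44 in siR-Con and 5.94, 5.44 and 5.87 in siR-GAL3. Each siR-GAL3 library was below each siR-Con library, which was the case for no other subunit of the group (two-sided p = 0.1 by exact permutation, below which groups of 3 cannot go). Groups without overlap were found for 20.5% of all genes tested, so 1 subunit of 9 is no more than that share. The means were 6.30 ± 0.132 and 5.75 ± 0.273 (SD, n = 3 each), with a log2 fold change of -0.11 (standard error 0.065, limma adjusted p = 0.590). The a1 isoform is the one most used in neurons, and the lower values stood beside neuronal markers summing to between 32.8 and 37.7 in siR-Con and between 30.6 and 37.7 in siR-GAL3. Of the 5 neuronal markers tested, 3 were higher and 2 lower, and 1 had an unadjusted p under 0.05, against 8.66% of all genes tested. It was STMN2, which was higher (log2 fold change 0.33, limma adjusted p = 0.324). Astrocyte markers summed to between 927.6 and 1069 in siR-Con and to between 801.5 and 865.7 in siR-GAL3. Most of these sums was GFAP, at 514.8 to 757.7. Of the 8 astrocyte markers, 6 were lower and 4 had an unadjusted p under 0.05, against the same 8.66%, and none had an adjusted p under 0.05. Their part in the ATP6V0A1 values was not tested.

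ATP6V0C was 39.2, 41.0 and 40.5 in the siR-Con libraries and 38.9, 49.5 and 40.3 in the siR-GAL3 libraries. Only siR-GAL3 replicate 2 lay outside the range of the other 5 by more than a unit. ATP6V0E1 followed the same course, with 3.42, 3.20 and 2.95 in siR-Con and 2.94, 4.83 and 3.26 in siR-GAL3. ATP6V0D1 was the steadiest member, with 23.7, 23.8 and 24.4 against 23.3, 24.8 and 22.7. The log2 fold changes were 0.08 for ATP6V0C (standard error 0.10), 0.14 for ATP6V0E1 (standard error 0.15) and -0.022 for ATP6V0D1 (standard error 0.066).

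**Figure D1:**
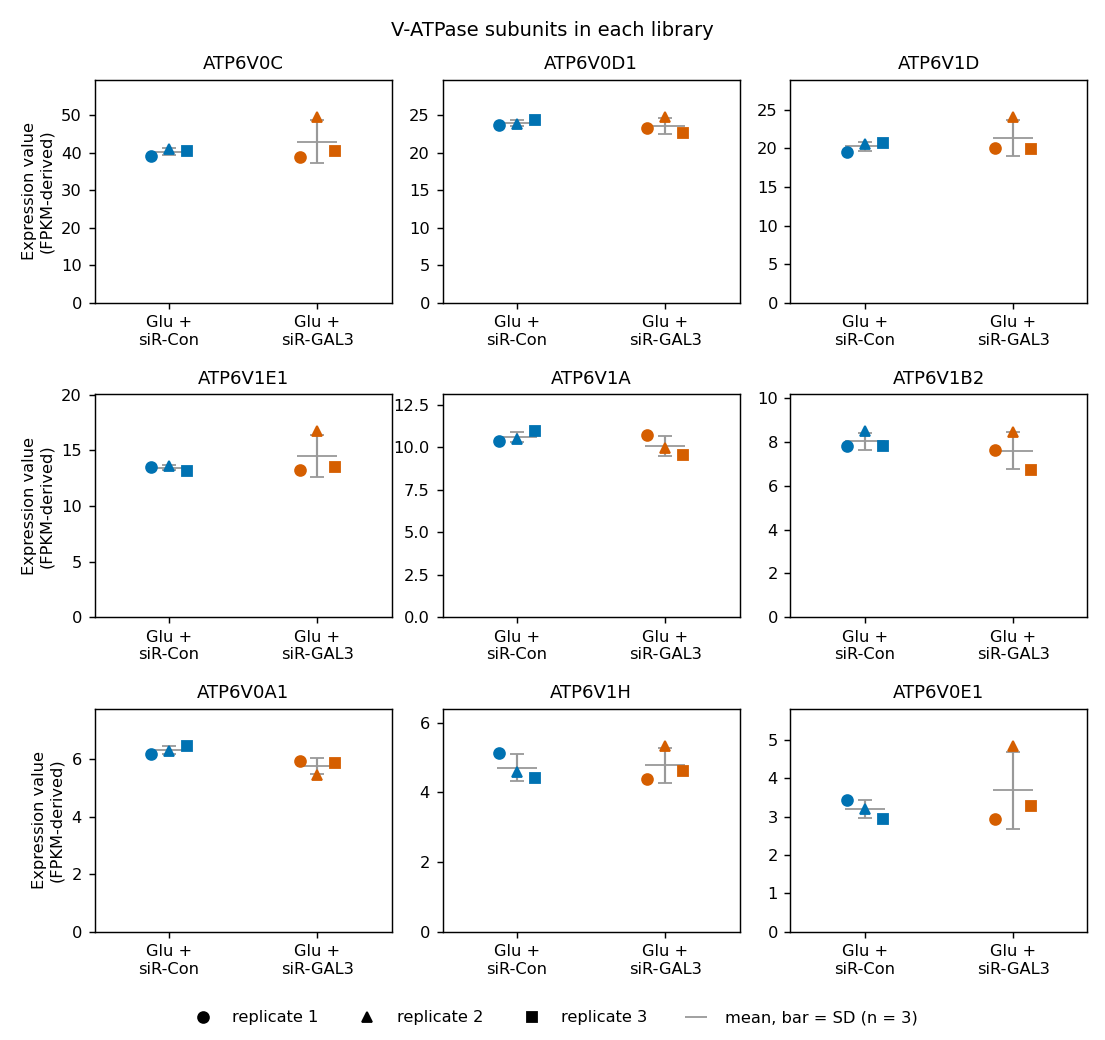
Expression values (FPKM-derived units, axes from 0) of the 9 V-ATPase subunits in each library, ordered by mean level. Points are libraries, grey bars the mean and SD of 3. In 6 panels, among them ATP6V0C (49.5) and ATP6V0E1 (4.83), the highest point is siR-GAL3 replicate 2, and in the ATP6V0A1 panel the groups do not overlap.

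Of the V1 sector, ATP6V1A was 10.4, 10.5 and 10.9 in siR-Con and 10.8, 9.96 and 9.56 in siR-GAL3. ATP6V1B2 was 7.80, 8.48 and 7.80 against 7.65, 8.44 and 6.73. Both catalytic head subunits had their lowest value in siR-GAL3 replicate 3, and in both the groups overlapped. Their log2 fold changes were -0.067 (standard error 0.070) and -0.073 (standard error 0.090).

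ATP6V1D of the rotor was 19.5, 20.6 and 20.7 in siR-Con and 20.1, 24.1 and 19.9 in siR-GAL3. ATP6V1E1 of the stator was 13.5, 13.6 and 13.2 in siR-Con and 13.2, 16.7 and 13.5 in siR-GAL3. In both, the siR-GAL3 libraries other than replicate 2 lay within the range of the siR-Con libraries. ATP6V1H was 5.14, 4.60 and 4.40 against 4.38, 5.33 and 4.62, so that its highest and lowest values both came from siR-GAL3. The log2 fold changes were 0.069 for ATP6V1D, 0.096 for ATP6V1E1 and 0.015 for ATP6V1H, with standard errors between 0.089 and 0.097.

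One library thus set the direction of most subunits. In 6 of the 9, ATP6V0C, ATP6V0D1, ATP6V0E1, ATP6V1D, ATP6V1E1 and ATP6V1H, the highest value was that of siR-GAL3 replicate 2, where 41.5% of all genes tested also had their highest value. It lay 53.2% above the mean of the other 5 libraries for ATP6V0E1, 24.6% for ATP6V1E1, 23.9% for ATP6V0C and 19.5% for ATP6V1D. For ATP6V0A1 it was the lowest value instead. LGALS3 was 32.3 in siR-GAL3 replicate 2, the highest value of the siR-GAL3 group. Its log2 fold change was -3.88 without that library, against -2.91 with all 6, so leaving the library out also changed the measured strength of the silencing. Without siR-GAL3 replicate 2, the log2 fold changes of all 9 subunits were below 0, against 51.1% of all genes tested, and ran from -0.14 for ATP6V1B2 to -0.0039 for ATP6V1E1. Their median was then -0.053. All but ATP6V0A1 and ATP6V1B2 lay between the quartiles of the fold changes of all genes tested, -0.064 and 0.058. Of the 7 further subunit genes tested, described below, 2 were below 0 without that library, and their median was 0.059. The groups did not overlap in 3 subunits without that library, ATP6V0A1, ATP6V0D1 and ATP6V1B2, a share near the 33.7% of all genes tested without overlap in the same libraries. None of the 9 had an adjusted p under 0.05 without it, where 1.97% of all genes tested passed, and the lowest was 0.341 for ATP6V1B2. When the sets of libraries were blocked, the median of the 9 was -0.057. Again none of the 9 passed, against 1.25% of all genes tested, with a lowest adjusted p of 0.417 in limma. Blocking leaves siR-GAL3 replicate 2, the only library of its set, without weight in the comparison, so it is no separate check.

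**Figure D2:**
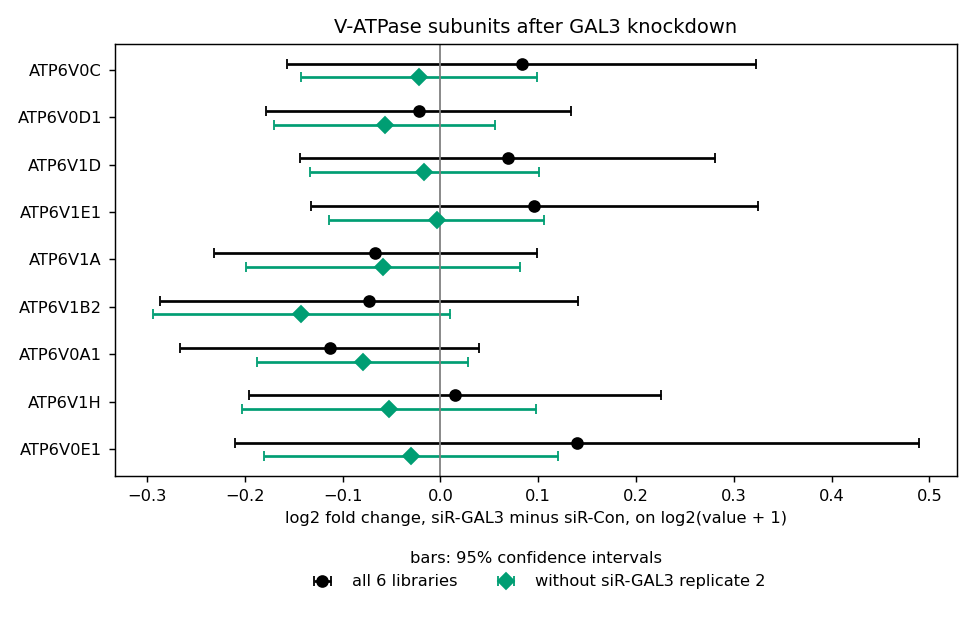
Log2 fold change of siR-GAL3 against siR-Con on log2(value + 1) for the 9 subunits, with all 6 libraries (black circles) and without siR-GAL3 replicate 2 (green diamonds). Bars are 95% confidence intervals from limma. With all libraries 5 circles lie above 0, and without that library all 9 diamonds lie below 0, with every interval crossing 0.

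Within the library sets most subunits were lower in siR-GAL3, by differences that were small for most. Between siR-GAL3 replicate 1 and siR-Con replicate 1, the differences of log2(value + 1) ran from -0.19 for ATP6V1H to 0.050 for ATP6V1A and were below 0 in 7 of 9 subunits, against 52.9% of all genes tested. Between siR-GAL3 replicate 3 and the mean of its 2 siR-Con partners, they ran from -0.24 for ATP6V1B2 to 0.066 for ATP6V0E1 and were below 0 in 6 of 9, against 49.8% of all genes tested. ATP6V0A1, ATP6V0C, ATP6V0D1 and ATP6V1B2 were lower in siR-GAL3 in both sets. The fold changes with the sets blocked were below 0 in all 9 subunits, against 50.7% of all genes tested, and rest on the same libraries. The median of the 7 further subunit genes with the sets blocked was 0.069.

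The distance of siR-GAL3 replicate 2 from the other libraries went with gene span, the genomic length of a gene in RefSeq annotation of assembly GRCr8. A span was matched by symbol for 8224 of the 8495 genes tested. In the quartile of shortest genes (up to 10.9 kb), the median difference of siR-GAL3 replicate 2 from the mean of the other 5 libraries was 0.25 on log2(value + 1), and in the quartile of longest genes (from 58.8 kb) it was -0.21. The same medians of the other 5 libraries lay between -0.061 and 0.071 in every quartile. Among the subunits, ATP6V0C (6.38 kb) differed by 0.30 and ATP6V0E1 (23.1 kb) by 0.49, whereas ATP6V1A (53.8 kb) differed by -0.059 and ATP6V0A1 (54.1 kb) by -0.15. ATP6V1H, with the longest span of the group (105.7 kb), went against this order, with a difference of 0.17. Among the further subunit genes described below, ATP6V0E2 (3.15 kb, -0.12), TCIRG1 (11.8 kb, -0.014) and ATP6V1C1 (37.9 kb, 0.24) also went against it. ATP6V1F, ATP6V1G1, ATP6V1G2 and ATP6V0A2 went with it. The part of gene span, or of any property of this library, in the subunit values was not tested.

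**Figure D3:**
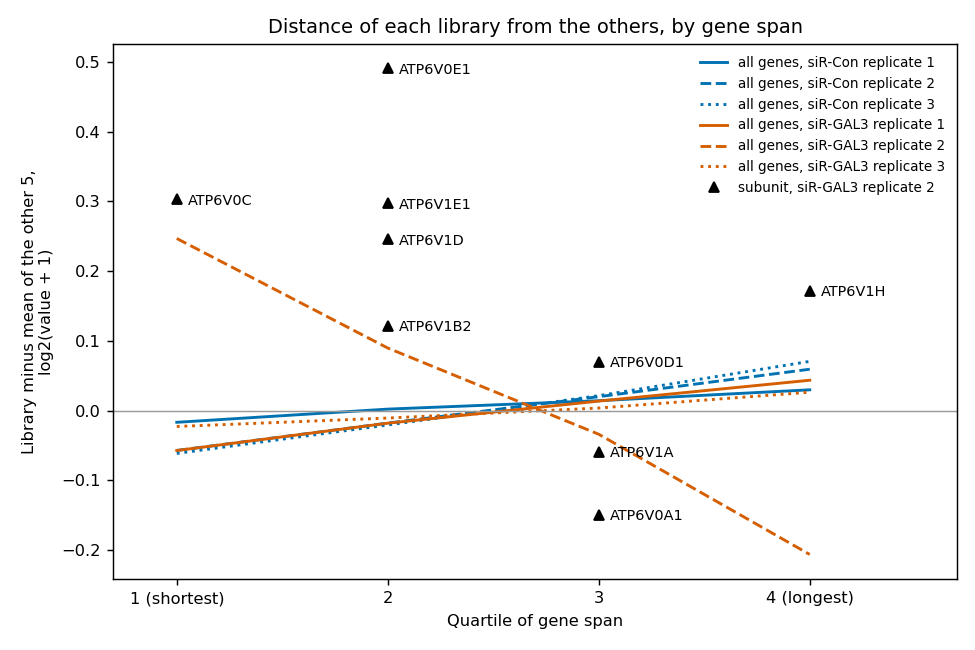
Difference of each library from the mean of the other 5 on log2(value + 1), by quartile of gene span. Lines are medians over all genes with a span, and triangles are the V-ATPase subunits in siR-GAL3 replicate 2. The line of siR-GAL3 replicate 2 falls from 0.25 to -0.21 while the other lines stay between -0.061 and 0.071.

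Several subunits exist as isoforms from separate genes, and 12 of 13 further subunit genes had a row (ATP6V1G3 had none). Apart from TCIRG1, described below, isoforms known mainly from kidney or osteoclasts that had a row were near 0 in every library. ATP6V1B1 was at most 0.0419, ATP6V0D2 at most 0.0324 and ATP6V0A4 at most 0.402. ATP6V1C2 and ATP6V1E2 were also low, at no more than 0.234 and 0.0541. Where ATP6V0E1 is the widespread e isoform, ATP6V0E2, which is enriched in brain, was the higher of the pair, at 12.6 to 14.7. ATP6V0E1 made up between 17.9% and 19.97% of their sum in siR-Con and between 18.3% and 27.8% in siR-GAL3, the highest share again in replicate 2. ATP6V1G1, the widespread G isoform, made up between 92.6% and 94.0% of its sum with ATP6V1G2, the neuronal one.

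The a subunit, which directs the pump to its membrane, was spread over 3 isoforms. ATP6V0A1 made up between 36.3% and 36.7% of the sum of the a isoforms in siR-Con and 32.6%, 39.9% and 33.9% in siR-GAL3. ATP6V0A2, known from the Golgi and endosomes, made up between 39.0% and 43.0% in siR-Con and between 29.1% and 42.9% in siR-GAL3. It was 3.97 in siR-GAL3 replicate 2 and between 6.66 and 7.44 in the other 5 libraries. TCIRG1, the a3 isoform of osteoclasts and of phagocyte lysosomes, was 3.20, 3.78 and 3.96 in siR-Con and 4.81, 3.82 and 3.71 in siR-GAL3. Microglia markers summed to between 101.2 and 121.7 in siR-Con and to between 127.0 and 145.9 in siR-GAL3. The highest of these markers were C1QA, C1QB and C1QC, each at 20.4 or more in every library. All 9 microglia markers tested were higher and 4 had an unadjusted p under 0.05, against 8.66% of all genes tested. Their log2 fold changes ran from 0.016 for CX3CR1, with P2RY12 at 0.023, to 0.57 for AIF1. None had an adjusted p under 0.05 with all 6 libraries, where 0% of all genes tested passed. Without siR-GAL3 replicate 2, 2 of the 9 passed, against 1.97% of all genes tested. They were AIF1 and ITGAM (limma adjusted p = 0.0169 and 0.0417). With the sets of libraries blocked 1 passed, AIF1 (limma adjusted p = 0.0196), against 1.25%. The part of the microglia markers in the TCIRG1 values was not tested.

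**Figure D4:**
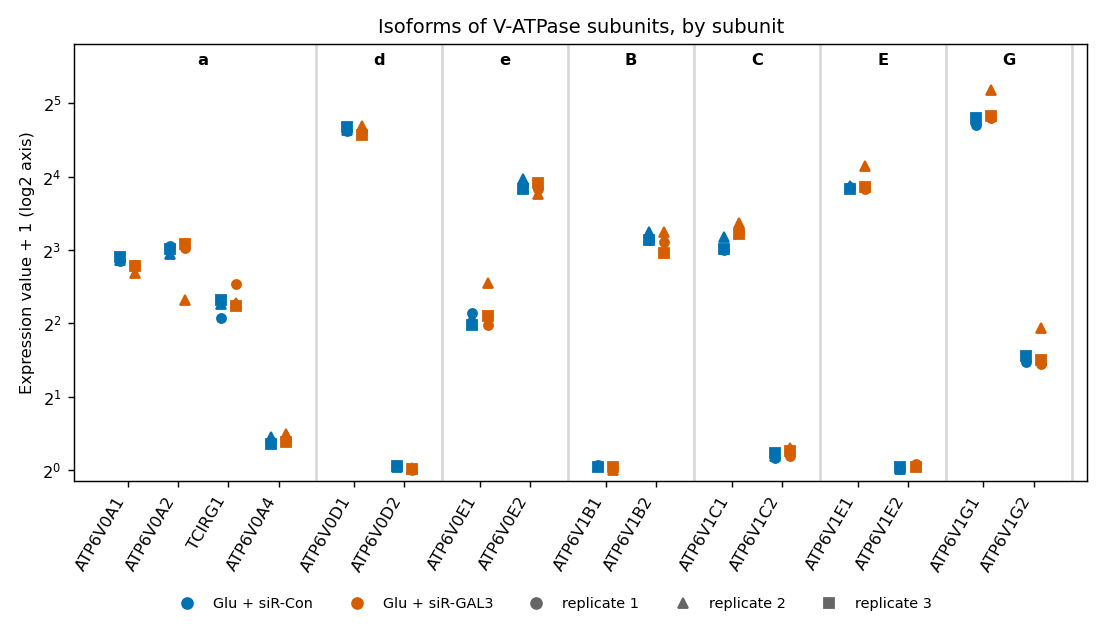
Expression values + 1 (log2 axis, values below 0 set to 0) of the isoforms of 7 V-ATPase subunits in each library. The widespread isoform exceeds the other by far for d, B, C, E and G, whereas ATP6V0E2 (12.6 to 14.7) lies above ATP6V0E1 (2.94 to 4.83), and ATP6V0A1, ATP6V0A2 and TCIRG1 lie closer together.

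Of the 7 further subunits that passed the filter, 5 were above 0 and 2 below, with a median log2 fold change of 0.14, and none had an adjusted p under 0.05. At an unadjusted p under 0.05 there was 1 of the 7, against 8.66% of all genes tested. It was ATP6V1C1, the subunit that ties stator to membrane sector when the pump assembles. ATP6V1C1 was 7.02, 8.02 and 7.04 in siR-Con and 8.48, 9.36 and 8.32 in siR-GAL3. The groups did not overlap, and the log2 fold change was 0.22 (standard error 0.080, limma unadjusted p = 0.0304, adjusted p = 0.534). Without siR-GAL3 replicate 2 it was 0.17 (limma unadjusted p = 0.0287, adjusted p = 0.248), and its unadjusted p was above 0.05 without siR-Con replicate 1 or 3, with a log2 fold change of 0.19 in either case. ATP6V1F of the rotor was 7.62, 7.47 and 7.53 in siR-Con and 8.75, 11.2 and 7.90 in siR-GAL3. ATP6V1G1 of the stator was 24.9, 26.3 and 26.8 against 26.9, 35.3 and 27.4. Neither overlapped between groups, but most of the difference lay in siR-GAL3 replicate 2. Without that library the log2 fold changes were 0.13 and 0.059, against 0.26 and 0.18 with all libraries. Groups without overlap were found in 3 of the 7 further subunits, against 20.5% of all genes tested.

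Of 15 accessory and assembly genes, 10 had a mean of at least 1, of which 4 were above 0 and 6 below. Their median log2 fold change was -0.020, and none had an unadjusted p under 0.05, against 8.66% of all genes tested. The groups did not overlap in 1 of the 10, WDR7, against 20.5% of all genes tested. Those with the smallest p were CCDC115 (0.17) and TMEM199 (0.19), assembly factors of the V0 sector, and WDR7 (-0.16), part of the complex that rejoins V1 and V0, with adjusted p between 0.585 and 0.590 in limma. ATP6AP1 and ATP6AP2, the accessory subunits, had log2 fold changes of -0.025 and 0.12. VMA21, another assembly factor, was below the filter at no more than 0.301.

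Of 14 channels and exchangers that set the ion balance of acidic organelles, 13 were tested, 5 above 0 and 8 below, with a median of -0.033. TPCN1, a cation channel of endolysosomes, and TMEM9, a membrane protein of late endosomes, had -0.10 and 0.13, with adjusted p of 0.607 and 0.624 in limma. The groups did not overlap for TPCN1, as for 20.5% of all genes tested.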

How the data were processed

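RNA of cultured rat spinal cord neurons was sequenced in 6 libraries. Per the study's methods, the authors used STAR for alignment and HTSeq for counting, estimated FPKM, and afterwards applied a batch removal, a standardization and a within-group correction. The tools of those last steps and the genome build are not given in the sources used here. The deposited values were linear, FPKM-derived and below 0 in 3.86% of cases. Depth is unknown. All columns were mapped by name to the libraries, grouped as the study describes them. Negative values were raised to 0 before log2(value + 1) transformation, and 8495 genes averaging 1 or more entered limma 3.58.1 (R 4.3.3, intensity trend), with Benjamini-Hochberg adjustment over all of them. The fit was tested on simulated data with independent noise in each library and changes far larger than those of the subunits. That test therefore does not show how well differences as small as theirs are found. A fold change on this scale understates that of low genes. The study describes its data in general as coming from independent repeated experiments, but does not say whether the sequenced libraries came from separate cultures. The p-values therefore measure only the spread between these libraries after the authors' correction. Single values were compared with exact permutation tests (Python 3.11.15).

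The members, lists and alternatives were chosen with earlier results of these data known. Genes named were the members, LGALS3, and from each further list those with an unadjusted p under 0.05 and the 3 with the smallest p. A gene that this rule names is not reported here. Isoforms, markers, ATP6AP1, ATP6AP2 and VMA21 were named after their values were seen. Promoter sequence and gene spans came from RefSeq tables of GRCr8, and 16309 of 17648 symbols matched. Protein sequences were not used here.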

Additional observations from a re-analysis of the deposited data

How the results depend on the processing

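None of the 9 subunits had an adjusted p under 0.05 under any alternative run. The number at an unadjusted p under 0.05 was 0 under every alternative except without log transformation. There it was 1 of 9 (ATP6V0A1, a difference of -0.55 expression units), against 750 of the 8495 genes tested. Without siR-GAL3 replicate 2, where no subunit passed that threshold, 1388 of the 8495 did. The median log2 fold change of the subunits, 0.015 with all libraries, was -0.057 when the sets of libraries were blocked and between -0.053 and 0.064 with each library left out in turn. It has no value without log transformation, where differences are in expression units. The number of subunits without overlap, 1, was 0 with a mean of at least 10, where 5 subunits were tested and 25.5% of all genes tested had no overlap, and between 1 and 3 with each library left out, the higher numbers being 2 without siR-GAL3 replicate 1 (38.1% of all genes tested) and 3 without siR-GAL3 replicate 2 (33.7%), neither above the share of all genes. Blocking the sets turned 5 subunits below 0, ATP6V0C at -0.013, ATP6V0E1 at -0.033, ATP6V1D at -0.010, ATP6V1E1 at -0.0029 and ATP6V1H at -0.063, and median-ratio scaling turned ATP6V1H to -0.0033. Omitting 1 library at a time, the fold changes (log2) ranged from -0.022 to 0.15 for ATP6V0C, from -0.057 to 0.0039 for ATP6V0D1, from -0.030 to 0.25 for ATP6V0E1, from -0.14 to 0.0020 for ATP6V1B2, from -0.017 to 0.11 for ATP6V1D, from -0.0039 to 0.15 for ATP6V1E1 and from -0.053 to 0.068 for ATP6V1H. ATP6V0A1 (-0.13 to -0.080) and ATP6V1A (-0.11 to -0.032) stayed below 0. The cause of these turns was not tested. The replicate block, with the number of the labels as a term, left 0 subunits at an unadjusted p under 0.05, against 543 of the 8495 genes tested. It left the median at 0.015. Same-numbered libraries did not deviate together (correlations of -0.17, -0.070 and 0.044 across genes), so the numbers were not treated as pairs. Depth cannot be weighed, since no counts are given.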
